A study of Mus musculus with 4 samples.

Results

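Phosphatidylethanolamine and phosphatidylcholine are made by the Kennedy pathway, and its genes were examined in hair follicle stem cells with and without the microRNA miR-205, together with the CTP synthase genes that feed it. The set holds 10 genes. 2 of them, Etnk1 and Ctps2, were chosen by their values in these same arrays, because both were higher in knockout than in wild-type cells, and the other 8 were chosen by function, as further enzymes of the same steps. Etnk2 had no probe set carrying its symbol alone, so 9 of the 10 genes were measured, among 18193 genes in all. Etnk1 was 1.60-fold and Ctps2 1.57-fold higher in the knockout arrays, a description for which no test is given, since these values chose the genes. The 7 measured genes chosen by function differed by between -0.12 and 0.08 on the log2 scale. None of them passed the test, which 2 of all 18193 genes (0.0110%) did, so that count says little about the pathway. Their median difference was 0.00, against 0.01 for all genes.

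In the Kennedy pathway a kinase first phosphorylates ethanolamine or choline. A second enzyme then joins the phosphorylated base to CTP, giving CDP-ethanolamine or CDP-choline, and a transferase passes that head group to diacylglycerol, which yields the membrane phospholipid. CTP synthases make the CTP by adding an amino group to UTP. The joining of the phosphorylated base to CTP, the middle step, is usually the slow one. Dividing cells, which must double their membranes, draw on the pathway heavily.

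Messenger RNA was measured on 4 one-colour Affymetrix arrays. 2 arrays held RNA of cells labelled miR-205 KO and 2 of cells labelled WT, both of strain background C57BL/6, taken at postnatal day 4 from skin and purified by flow cytometry. Each group has an array numbered 1 and an array numbered 2, called biological replicates, without word on whether single animals or pools were used. The labels do not say which cells lack miR-205, how the allele was made or which markers gated the sort. A treatment note carried by all 4 samples speaks of doxycycline given to K14-rtTA/TRE-miR-203/K14-H2BGFP mice and TRE-miR-203/K14-H2BGFP littermates, which does not match the genotypes given, and it was left out of the grouping. All p-values below reflect only how far these few arrays vary, which may be technical, and an exact permutation test of 2 arrays against 2 cannot go below p = 0.33.

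The sequences below show the mature 5′ arm of miR-205 and what lies before the transcribed part of the genes that the comparison turns on. They come from RefSeq, build GRCm38.p6. The 5′ arm of miR-205 lies on the minus strand at chr1:193507503-193507524 and is given 5′ to 3′ with its seed, bases 2 to 8, in capitals.
miR-205-5p: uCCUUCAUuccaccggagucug
The 3 promoter stretches hold the 250 bases before the start of Etnk1 (chr6:143166980-143167229, plus strand), of the most upstream start listed for Ctps2 (chrX:162901310-162901559, plus strand) and of the most upstream start listed for its paralogue Ctps (chr4:120570277-120570526, minus strand). They are shown because Etnk1 and Ctps2 had nearly the same values across the arrays while Ctps differed far less. Etnk1 and Ctps2 were both chosen for a higher KO value, so their likeness and the contrast with Ctps follow in part from that choice. Capitals mark matches, on either strand, to the GC box GGGCGG, to CCAAT, to the E-box CACGTG or to TATAAA.
Etnk1: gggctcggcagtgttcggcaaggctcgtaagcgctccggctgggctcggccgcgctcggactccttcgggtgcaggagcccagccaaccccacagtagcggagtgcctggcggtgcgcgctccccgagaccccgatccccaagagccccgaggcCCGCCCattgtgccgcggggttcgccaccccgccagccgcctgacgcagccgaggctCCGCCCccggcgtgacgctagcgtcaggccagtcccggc
Ctps2: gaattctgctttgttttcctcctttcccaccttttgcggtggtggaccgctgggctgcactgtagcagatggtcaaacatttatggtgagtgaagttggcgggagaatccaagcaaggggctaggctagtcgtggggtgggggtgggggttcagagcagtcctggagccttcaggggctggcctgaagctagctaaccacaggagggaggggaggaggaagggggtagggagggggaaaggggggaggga
Ctps: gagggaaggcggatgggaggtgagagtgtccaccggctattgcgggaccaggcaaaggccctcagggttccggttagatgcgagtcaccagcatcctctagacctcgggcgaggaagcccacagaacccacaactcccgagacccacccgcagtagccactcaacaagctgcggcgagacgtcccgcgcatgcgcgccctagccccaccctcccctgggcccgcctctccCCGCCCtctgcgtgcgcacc
Etnk1 holds 2 GC boxes there and Ctps 1, while this Ctps2 stretch holds none of the 4 motifs. Over all 32851 promoter windows of that length, 32.7% hold GGGCGG, 33.8% CCAAT, 6.02% CACGTG and 12.4% TATAAA. Among the members 9 have a promoter in the table, Pcyt2 not being listed, with 16 windows in all. GGGCGG is in 10 of these 16 windows, CCAAT in 4, TATAAA in 1 (Chkb) and CACGTG in 0. Windows of 1 gene can overlap, and the 10 with GGGCGG belong to 8 genes, for which no share over all genes was taken. G and C made up between 27.6% and 75.6% of the member windows. They made up 74.8%, 59.2% and 67.6% of the stretches shown for Etnk1, Ctps2 and Ctps. The median over all windows was 52.4%. The part of base composition in these counts was not tested. Ctps2 is the member of these 9 without a GC box, and the most downstream of its listed starts has a CCAAT. These are matches of letters only and say nothing of what binds there.

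All 10 genes listed as markers of keratinocytes and follicle stem cells had a mean above that of the median gene, 6.88. Not all of them are particular to these cells, as with Cd34. The Tcf3 measured here is the chromosome 10 gene of that symbol, and whether it marks follicle stem cells was not examined. Krt5 and Krt14, basal keratins, lay between 13.47 and 13.76 on all arrays, Krt15, a keratin of the follicle bulge, between 13.62 and 14.05, and the stem cell transcription factors Lhx2 and Sox9 between 9.94 and 11.76. Cd34, a surface marker of bulge stem cells that other skin cells also carry, was low and uneven, at 6.87 on KO 1, 6.69 on KO 2, 8.32 on WT 1 and 6.20 on WT 2. Other RNA differed between arrays. Xist was at 5.26 and 5.45 on the KO arrays and at 13.28 and 13.19 on the WT arrays, and the Y-linked Eif2s3y was at 9.59 and 9.57 against 3.05 and 2.86, so each comparison of genotypes is also one of arrays that differ in sex-linked RNA. The 8 fibroblast markers, summed as linear values, were highest on WT 1 (39928), then KO 1 (21920), KO 2 (10998) and WT 2 (8115). The 4 markers of differentiated epidermis summed to 7683 and 7519 on KO 1 and KO 2 and to 5000 and 3306 on WT 1 and WT 2, and 2 of the 4, the keratins Krt1 (difference 1.25) and Krt10 (0.81), had both KO arrays above both WT arrays. Sebaceous and adipocyte markers summed to between 5306 and 7211. Melanocyte, endothelial, immune and muscle markers summed to at most 943 on any array. 3 of the 4 endothelial markers had both KO arrays below both WT arrays, and all 4 melanocyte markers were lower in KO within both numbers, Mitf with a difference of -0.47 (limma unadjusted p = 0.0036, adjusted p = 1). In the keratinocyte and stem cell list 4 of 10, Krt5, Krt14, Krt15 and Lhx2, had both KO arrays above both WT arrays. Over all genes 8.20% had both KO arrays above both WT arrays, and 10.7% among genes above the median gene. Both KO arrays lay below in 5.70% of all genes, and 16.8% were lower in KO within both numbers. These short lists carry no test. The part of these differences in the results below was not tested. In sorted bulk cells a change in the share of a cell type and a change in RNA per cell cannot be told apart.

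The first step is taken by ethanolamine and choline kinases, of which the ethanolamine kinase Etnk1 was chosen for its higher KO values. Etnk1 was at 9.25 on KO 1 and 9.28 on KO 2, and at 8.63 on WT 1 and 8.54 on WT 2 (log2 values). Both KO arrays lay above both WT arrays, and the KO mean was 9.26 ± 0.022 and the WT mean 8.59 ± 0.066 (SD, 2 arrays per group). The difference was 0.68, being 0.62 between the arrays numbered 1 and 0.74 between those numbered 2. Of all genes, 35 had a larger difference in the same direction.

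The 4 other probe sets of Etnk1 were dimmer and did not all show this. One, at 4.55 and 4.74 in KO and 4.23 and 4.07 in WT, also had its groups apart, with a difference of 0.49. The brightest of the 4, at 7.32 and 7.11 in KO and 7.20 and 7.11 in WT, differed by 0.06 with overlapping arrays. The remaining ones differed by -0.10 and 0.10 at levels between 3.31 and 4.35. Without detection calls in the table, it is unknown which of the dim ones were above background. The mean of all 5 probe sets differed by 0.25.

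**Figure D1:**
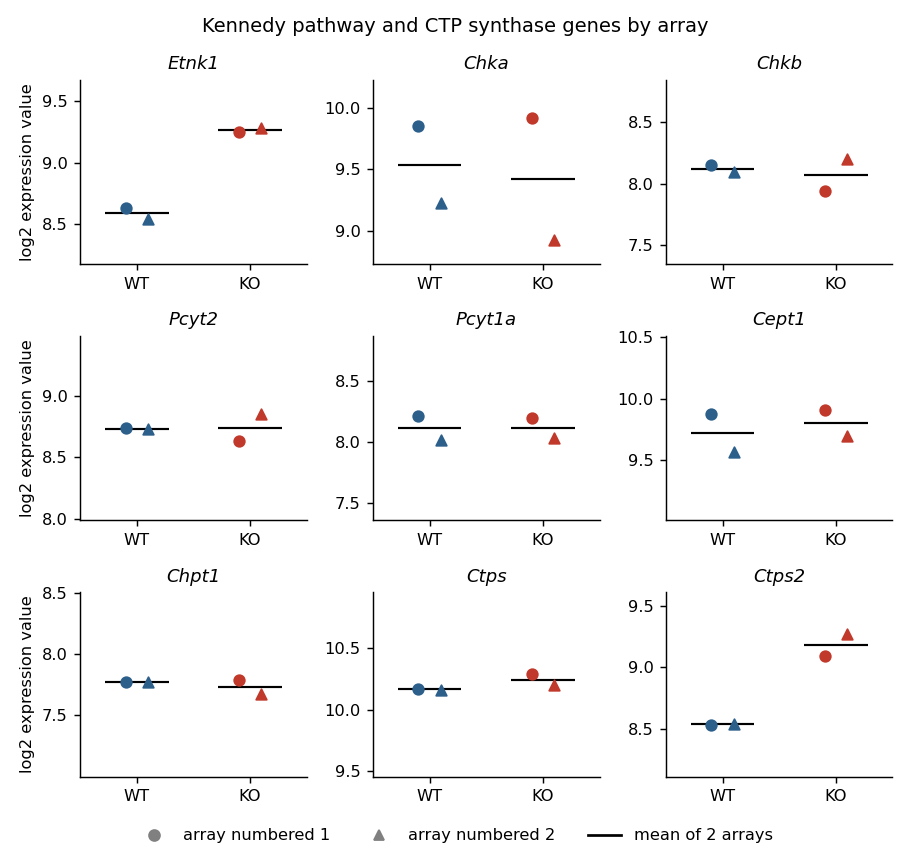
Log2 expression values (vertical axes, each spanning 1.5 log2 units) of the 9 measured genes on the WT and KO arrays, circles for arrays numbered 1, triangles for arrays numbered 2 and bars for the mean of 2 arrays. Etnk1 and Ctps2 have both KO arrays well above both WT arrays, Ctps has them slightly above, and the other 6 genes overlap.

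Chka, the choline kinase that phosphorylates choline and to a lesser extent ethanolamine, was at 9.92 on KO 1 and 8.92 on KO 2, and at 9.85 on WT 1 and 9.23 on WT 2. Its arrays overlapped between genotypes and were separated by number instead, both arrays numbered 1 lying above both numbered 2. The difference between KO and WT was -0.12 with an SE of 0.48 and a 95% interval from -1.62 to 1.38 (limma adjusted p = 1), so that a change as large as that of Etnk1 lies within its error. Between the numbers Chka differed by 0.81. Without KO 2 the difference of Chka was 0.38, without WT 1 it was 0.19, and without KO 1 it was -0.62. Its second probe set differed by -0.17, again with the numbers apart, whereas the third, at 8.54 and 8.47 in KO and 8.64 and 9.06 in WT, differed by -0.35 with both KO arrays below both WT arrays.

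Chkb, the other choline kinase, was at 7.94 and 8.20 in KO and at 8.15 and 8.10 in WT, and these arrays overlapped. It differed by -0.05 (SE 0.11, 95% interval -0.40 to 0.30, limma adjusted p = 1). Without KO 1 the difference was 0.08. The KO arrays lay on either side of the WT arrays.

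At the second step neither CTP-using enzyme differed beyond the spread of its arrays. Pcyt2, which makes CDP-ethanolamine and so acts directly after Etnk1, was at 8.63 on KO 1, 8.86 on KO 2, 8.74 on WT 1 and 8.73 on WT 2. The KO arrays again lay on either side of the WT arrays, and the difference was 0.01 (SE 0.10, 95% interval -0.30 to 0.32, limma adjusted p = 1). It was -0.11 between the arrays numbered 1 and 0.13 between those numbered 2.

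Pcyt1a, the enzyme that makes CDP-choline and sets the pace of phosphatidylcholine synthesis, was at 8.20 on KO 1, 8.03 on KO 2, 8.21 on WT 1 and 8.01 on WT 2. Like Chka it was separated by number and not by genotype, with a difference of 0.18 between numbers and of 0.00 between genotypes (SE 0.11, 95% interval -0.35 to 0.35, limma adjusted p = 1). The 3 other probe sets of Pcyt1a differed by -0.06, -0.04 and 0.01 between genotypes, all with overlapping arrays. The sign of a value this close to 0 has no meaning, and it was -0.01 after quantile normalization again.

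The last step, the transfer of the head group to diacylglycerol, gave the same picture in the members measured, Cept1 and Chpt1. Selenoi, the ethanolamine-specific transferase, was counted in a wider list and not as a member. It was at 8.59 on KO 1, 8.20 on KO 2, 8.37 on WT 1 and 8.22 on WT 2. These arrays overlapped, with a difference of 0.10 (SE 0.17). Cept1, the transferase that accepts both CDP-choline and CDP-ethanolamine, was at 9.91 on KO 1, 9.69 on KO 2, 9.87 on WT 1 and 9.56 on WT 2. It was higher in KO within each number, by 0.04 and 0.13, but the 2 genotypes overlapped and the numbers differed more, by 0.26. The difference between genotypes was 0.08 (SE 0.16, 95% interval -0.41 to 0.57, limma adjusted p = 1), and it was -0.03 without KO 1 and -0.07 without WT 2.

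Chpt1, the choline-specific transferase of the Golgi, was at 7.79 and 7.67 in KO and at 7.77 on both WT arrays. Equal values on both WT arrays make the spread look smaller than it may be. The difference was -0.04 (SE 0.06, 95% interval -0.23 to 0.15, limma adjusted p = 1), and the 3 other probe sets of Chpt1 differed by 0.05, 0.04 and -0.07, all overlapping.

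The CTP synthases differed from each other in how far KO stood above WT. Ctps2, the X-linked synthase, was at 9.10 on KO 1 and 9.27 on KO 2, and at 8.53 on WT 1 and 8.54 on WT 2. All KO values lay above all WT values, with means of 9.18 ± 0.13 and 8.54 ± 0.0049 (SD, n = 2 each). The difference was 0.65, being 0.56 between the arrays numbered 1 and 0.73 between those numbered 2, and 41 genes had a larger one.

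Its dimmer probe sets had the same sign at smaller size. One differed by 0.25, with both KO arrays at 4.06 and the WT arrays at 3.63 and 3.99. The other differed by 0.13, with 6.01 and 6.18 in KO and 5.92 and 6.01 in WT, where KO 1 equalled WT 2. The mean of the 3 probe sets of Ctps2 differed by 0.34. Because the KO and WT arrays differ in Xist, the 617 measured X-linked genes were set beside it: their median difference was 0.00, 7.94% had both KO arrays above both WT arrays and 7.46% had them below. None had a larger difference than Ctps2, which follows in part from the choice of Ctps2 by that difference. The part of sex-linked RNA in the Ctps2 value was not tested.

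Ctps, which catalyses the same reaction and is the synthase induced in proliferating lymphocytes, was at 10.29 on KO 1, 10.20 on KO 2, 10.17 on WT 1 and 10.16 on WT 2. It was the 1 gene chosen by function whose KO arrays both lay above both WT arrays. The gap was small, since KO 2 exceeded WT 1 by less than the 2 KO arrays differed from each other. The difference was 0.08 (SE 0.05, 95% interval -0.09 to 0.24, limma adjusted p = 1). The difference of Ctps2, by which that gene was chosen, lies above this interval, which is a description only.

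**Figure D2:**
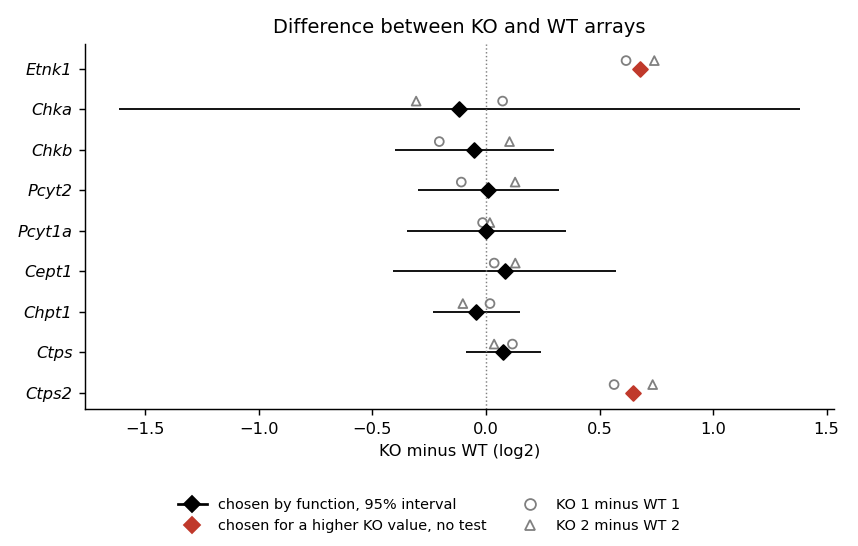
Difference between KO and WT means (horizontal axis, log2) of the 9 measured genes, as diamonds, with the 95% interval of limma for the 7 genes chosen by function and none for the 2 genes chosen for their higher KO value. Grey open symbols give the difference within each array number. The intervals of Chkb, Pcyt2, Pcyt1a, Cept1, Chpt1 and Ctps end below the values of Etnk1 and Ctps2, and that of Chka does not.

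Counted over the genes chosen by function, 0 of 7 had a limma adjusted p under 0.05, where 0.0110% of all genes did, and 0 of 7 had an unadjusted p under 0.05, where 1.88% did. Their smallest unadjusted p was 0.24, for Ctps. Both KO arrays lay above both WT arrays in 1 of the 7 (8.20% of all genes) and below in 0 (5.70%). 2 of the 7, Cept1 and Ctps, were higher in KO within both numbers (24.0% of all genes) and 0 were lower within both (16.8%). 4 of the 7 had a higher and 3 a lower KO mean. With single arrays left out, the count with KO on top was 3 without KO 1, 4 without KO 2, 3 without WT 1 and 1 without WT 2. The count with KO below was 2, 2, 0 and 1. Groups come apart more easily with an array left out, so these counts cannot be read against the shares above. No share over all genes was taken for those settings. The upper ends of the 95% intervals ran from 0.15 for Chpt1 to 0.57 for Cept1 in 6 of the genes and reached 1.38 in Chka. In those 6 genes a difference of 0.65 or 0.68, as in the probe sets that chose Ctps2 and Etnk1, lies outside the interval. Those values are large by choice, so the comparison describes sizes and is no test of whether the pathway follows. Against the mean of all probe sets, 0.25 for Etnk1 and 0.34 for Ctps2, fewer intervals end below: those of Chpt1 and Ctps for Etnk1, and those of Chpt1, Ctps, Chkb and Pcyt2 for Ctps2. The 0 of 7 past the adjusted threshold is no result about these genes, since the 2 genes that passed were Xist and Eif2s3y and even Krt1, at a difference of 1.25, had an adjusted p of 1 in limma.

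**Figure D3:**
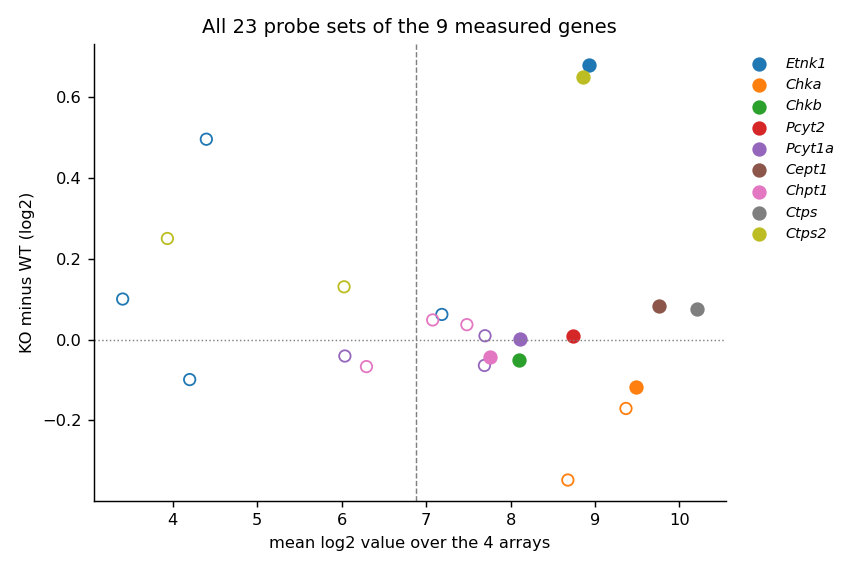
Difference between KO and WT (vertical axis, log2) against the mean log2 value over the 4 arrays (horizontal axis) for all 23 probe sets of the 9 measured genes, filled for the probe set used for each gene and open for the others. The dashed line marks the median gene at 6.88, and the probe sets used for Etnk1 and Ctps2 lie above all others.

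The arrays were also compared by number. A gene whose arrays are separated by genotype cannot also be separated by number, so the 2 separations exclude each other by construction. In 3 of the 7 genes chosen by function, Chka, Pcyt1a and Cept1, both arrays numbered 1 lay above both numbered 2, as in 22.0% of all genes. These differences between numbers, 0.81, 0.18 and 0.26, were each larger than the difference of the same gene between genotypes. Etnk1 and Ctps2, which were chosen by their difference between genotypes, differed by 0.03 and -0.09 between numbers. The summed fibroblast markers also differed between the numbers, as given above, in the order WT 1, KO 1, KO 2, WT 2. Among the single markers Fbln1, highest on WT 2, and Pdgfrb, lowest on KO 2, departed from the order of the sum. Pcyt1a had the order of the sum, while Chka had KO 1, WT 1, WT 2, KO 2 and Cept1 had KO 1, WT 1, KO 2, WT 2. The part of fibroblast RNA in these values was not tested.

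**Figure D4:**
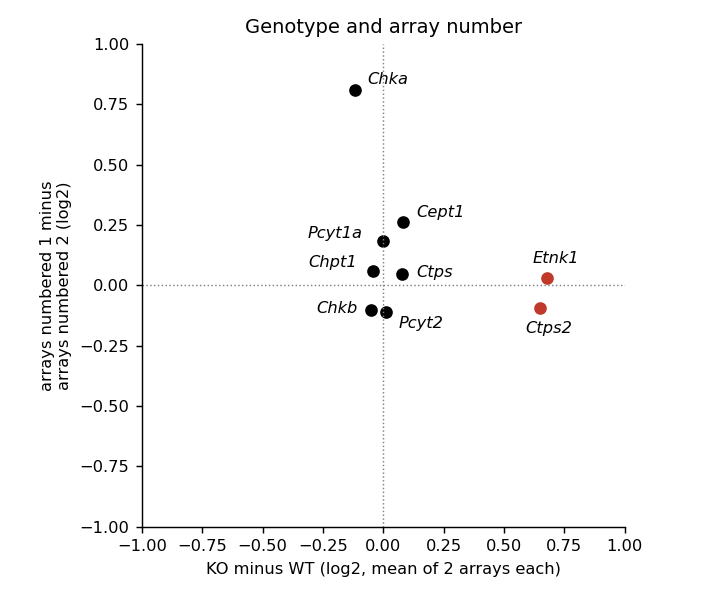
Difference between arrays numbered 1 and 2 (vertical axis, log2) against the difference between KO and WT (horizontal axis, log2) for the 9 measured genes, on equal scales. Etnk1 and Ctps2 (red), chosen by their KO against WT values, lie far along the genotype axis and near 0 on the number axis. Chka lies at 0.81 on the number axis.

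Genes around the pathway were examined as 5 lists with 64 measured genes of 66, and no gene in them passed (limma, 0 of 64 at an adjusted p under 0.05 and 1 of 64 at an unadjusted p under 0.05, where 1.88% of all genes had one). The differences were small and leaned toward higher KO values. 11 of the 64 had both KO arrays above both WT arrays (8.20% of all genes) and 2 had them below (5.70%). 29 were higher in KO within both numbers (24.0%) and 6 lower (16.8%), with a median of 0.05 against 0.01 for all genes. Since 50 of the 64 lay above the median gene in level, the same counts were taken among such genes only: 25 of 50 were higher within both numbers, against 30.4% of all genes above the median, 3 were lower against 17.3%, and 8 had both KO arrays on top against 10.7%. These shares describe genes that share arrays and carry no test.

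The 1 gene with an unadjusted p under 0.05, about as many as the share over all genes gives, was Cmpk1, the kinase that phosphorylates CMP and UMP and so stands upstream of the CTP synthases. Cmpk1 was at 11.31 on KO 1, 11.30 on KO 2, 11.08 on WT 1 and 11.04 on WT 2. The groups did not overlap, and the difference was 0.24 (SE 0.04, limma unadjusted p = 0.0088, adjusted p = 1). A much dimmer second probe set of Cmpk1 differed by 0.28, also without overlap. Over all 13 genes of pyrimidine nucleotide supply, Cmpk1 included, the median was -0.01, with 3 genes higher and 3 lower within both numbers and a range from -0.17 to 0.24.

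Among the other phospholipid branches the phosphatidylserine synthases had the smallest p. Ptdss2, which makes phosphatidylserine from phosphatidylethanolamine, was at 9.16 on KO 1, 9.46 on KO 2, 8.97 on WT 1 and 9.04 on WT 2, a difference of 0.31 (SE 0.13, limma adjusted p = 1). The arrays of the 2 genotypes were apart in 5 of its 9 probe sets, all with KO on top, and the 9 ran from -0.06 to 0.36. Ptdss1, which exchanges the choline of phosphatidylcholine for serine, was at 9.37 on both KO arrays and at 9.27 and 9.08 in WT, a difference of 0.20 (SE 0.09, limma adjusted p = 1). That list of 14 had a median of 0.08, with 7 genes higher and 0 lower within both numbers. Its widest difference, 0.35 for the sphingomyelin synthase Sgms2, a gene named after its values were seen, came from KO 1 at 9.22, the other arrays lying between 8.36 and 8.54.

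**Figure D5:**
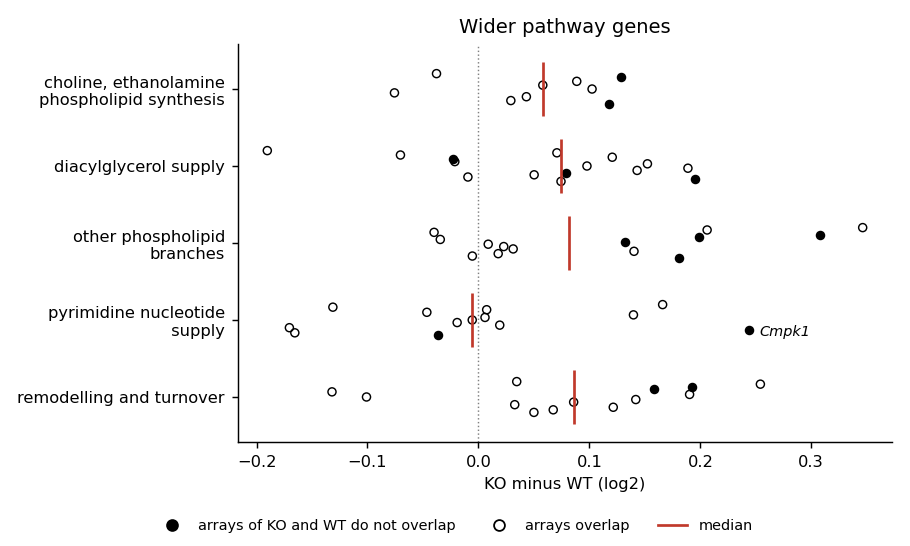
Difference between KO and WT (horizontal axis, log2) of the 64 measured genes in 5 lists around the pathway, 1 point per gene, filled where KO and WT arrays do not overlap, with red lines at the list medians. The medians lie between -0.01 and 0.09, and Cmpk1 is the 1 gene with an unadjusted p under 0.05.

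The remaining lists were described by their counts, to be read against the 24.0% of all genes that were higher and the 16.8% that were lower within both numbers (30.4% and 17.3% among genes above the median). Of 9 further genes of choline and ethanolamine phospholipid synthesis, 5 were higher and 1 lower within both numbers (median 0.06), and those of smallest p were dim: Etnppl, a phospholyase that breaks down phosphoethanolamine, differed by 0.12 (SE 0.04) at levels between 5.17 and 5.30, and Slc44a3, of the choline transporter-like family, by 0.13 (SE 0.08) at levels between 3.13 and 3.37. Of 15 genes of diacylglycerol supply, 6 were higher and 1 lower within both numbers (median 0.07). Agpat2, an acyltransferase that makes phosphatidic acid, differed by 0.20 (SE 0.12) and Gpam, the mitochondrial glycerol phosphate acyltransferase, by 0.14 (SE 0.09), with KO 2 and WT 2 equal at 10.08 in Gpam. Of 13 genes of remodelling and turnover, 8 were higher and 1 lower within both numbers (median 0.09). There the phospholipase Pld1, which releases choline from phosphatidylcholine, differed by 0.19 (SE 0.08) and Napepld, a phospholipase that acts on N-acyl phosphatidylethanolamine, by 0.16 (SE 0.07). None of these 6 genes passed (limma adjusted p = 1 for each).

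Likeness to Etnk1 and Ctps2 was measured as the Euclidean distance between values centred on each gene's own mean over the 4 arrays. Nearest to Etnk1 were Btbd3 (distance 0.08), Phc2 (0.08) and Apobec1 (0.11), and Ctps2 was the fifth nearest of all genes at 0.13. Nearest to Ctps2 were Gm20300 (0.11), Etnk1 (0.13) and Mtfr1l (0.14). These genes differed by 0.75, 0.63, 0.76, 0.57 and 0.52 between KO and WT for Btbd3, Phc2, Apobec1, Gm20300 and Mtfr1l. With 4 arrays a pattern of this kind is little more than the difference itself. Etnk1 and Ctps2 were both chosen by that difference, so their nearness follows in part from the choice and is a description only.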

How the data were processed

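The authors deposited log2 expression values, made with RMA per the submitters' processing notes; its version, the probe set definition and a genome build are not given in these sources. The table covers 45101 probe sets on 4 arrays (KO 1, KO 2, WT 1, WT 2), grouped by sample title. Probe sets were named by GEO's platform annotation, and symbols were updated by gene identifier from the GRCm38.p6 RefSeq gene table (34741 of the 34945 probe sets with 1 symbol matched). A probe set naming Chkb beside other genes was not used. For each of 18193 genes the probe set of highest mean over the 4 arrays was taken.

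KO was compared with WT in R 4.3.3 by two-sided moderated tests of limma 3.58.1 (lmFit, then eBayes, without covariates). P-values were adjusted by Benjamini-Hochberg across the 18193 genes, with a threshold of 0.05 and no filter on dim genes. Differences are KO minus WT on the log2 scale, SEs are moderated, and intervals are unadjusted. Precision depends on the small number of arrays. The fit was also run on simulated data with independent noise on each array, which does not cover variation shared by arrays of the same number. The members and lists were chosen with earlier results of these data known. Named genes are the members, the 3 nearest profiles, marker genes, and from each list those with an unadjusted p under 0.05. Where a list had none, the 2 of smallest p were named. Selenoi and Sgms2 were added after their values were seen. Alternatives covered normalization, dim genes, probe set averaging, the replicate number as a block, eBayes settings and leaving out each array.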

Additional observations from a re-analysis of the deposited data

How the results depend on the processing

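Across all genes 2 passed the threshold of limma, Xist and Eif2s3y, and neither is a member. The count was 3 after quantile normalization again and 3 with median centring, 2 with either other eBayes setting, 1 among genes above the median gene only (150 at an unadjusted p under 0.05), 0 with the mean of the probe sets of a gene (375), 0 with every probe set by itself (711) and 0 without any single array (1044 to 2044). With the replicate block, the array number as a term, it was 0 (879). The labels name nothing that arrays of the same number share beyond that number. Their values did share variation: the deviations of KO 1 and WT 1 from their group means correlated at 0.56 across genes, from 2 pairs. The block changed no call among the members. No member chosen by function passed under any alternative in which its adjusted p was read. It was not read among genes above the median gene only or with every probe set by itself, and in the latter no gene passed.

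Of 90 alternative values of the members, 12 changed sign, all in genes that did not pass. After quantile normalization again, the median of the genes chosen by function was -0.0125, as was Pcyt1a, and Pcyt2 was -0.0015; with the mean of its probe sets Pcyt1a was -0.0236. With single arrays left out, the median ran from -0.0716 to 0.0846, the number with KO on top from 1 to 4 and the number with KO below from 0 to 2. Groups come apart more easily with fewer arrays, and no share over all genes was taken beside these counts. Over the same omissions Chka ran from -0.6181 to 0.3836, Chkb from -0.1789 to 0.0768, Pcyt1a from -0.0986 to 0.1006, Pcyt2 from -0.1037 to 0.1232, Cept1 from -0.0716 to 0.2366 and Chpt1 from -0.1020 to 0.0176. An array left alone in its group was assumed to vary like the other group. Etnk1 lay between 0.63 and 0.73 and Ctps2 between 0.56 and 0.74, except with the mean of their probe sets (0.25 and 0.34). The cause of these changes was not tested. Signal over background is unknown for dim probe sets.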
